A study of Mus musculus with 13 samples.

Results

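A set of 10 secreted glycoproteins of the fibroblast matrix was followed through 13 single-cell libraries of mouse mammary stroma: the tenascins Tnc and Tnxb, the fasciclin-domain proteins Postn and Tgfbi, the thrombospondins Thbs1, Thbs2, Thbs3, Thbs4 and Comp, and Sparc. They were matched by gene symbol among 32285 genes listed. Each was measured over fibroblast barcodes, of which there were 100523 among 120355 barcodes in all. A fibroblast barcode had 500 to 7500 detected genes, at most 10% mitochondrial UMIs, at least 50 UMIs of Dcn, Lum and Col1a2 together per 10000, and no UMI of Epcam, Pecam1, Rgs5, Sox10, Ptprc or Myog.

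Proteins of this kind are called matricellular: they are laid into the extracellular matrix but act mainly on how cells adhere, move and respond to growth factors, rather than as load-bearing fibres. Most are scarce in resting adult tissue and are made during development, wound repair and tumour growth. In the mammary gland the matrix is rebuilt with each cycle of ductal growth, pregnancy, lactation and involution, and fibroblasts are its main source.

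All mice were female. In the stage experiment, 5 libraries held the Lin-CD24- sorted stroma (Lin being CD31, CD45 and TER-119) of wildtype C57BL/6 glands, 1 library a stage, taken at puberty (4 weeks), from the adult virgin (9 weeks), after 14.5 days of pregnancy, after 10 days of lactation and 4 days into involution. In the hormone experiment, 4 libraries came from 9-week-old wildtype C57BL/6 mice, sorted in the same way, that had received placebo (2 libraries) or MPA+E, that is medroxyprogesterone acetate with estrogen (2 libraries, labelled as drug-treated). The last 4 were GFP+ cells of raGFP-Wnt1 mice (Pdgfra-GFP KI/+ MMTV-Wnt1 T/+, mixed C57BL/6 FVB background), a model in which the MMTV promoter drives Wnt1 in mammary epithelium and GFP reports Pdgfra. There the tumour and the paired hyperplastic gland were taken from the same animal, mouse 1 at 45 weeks and mouse 2 at 17 weeks. By the study's methods, each stage library drew on 2 females, and each hormone library on 2 females of its own. The p-values of the hormone fits, over libraries and within classes, measure the spread between such pools, not between single animals. In the raGFP-Wnt1 comparisons the spread is that between 2 mice of unlike age and between the puberty and adult libraries, joined as 1 normal group.

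Fibroblast barcodes numbered 4236 to 11951 per library and carried 47521842 to 102522735 UMIs. Their median depth ran from 3990 UMIs in pregnancy to 20256 in tumour 2. Levels are given as UMIs per 1000000 fibroblast UMIs (CPM) of the library. Because the chemistry counts the 3' end of each transcript once, a level does not grow with transcript length. The fibroblast markers Dcn, Lum, Pdgfra, Col1a2, Col1a1 and Pdgfrb were detected in every library and summed to 21095 to 40583 CPM. Between 3 and 34 fibroblast barcodes of a library were found in another library too, 0.0708% to 0.503% of them.

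Roles and positions (mm10, equal to GRCm38) are given first. Tnc (chr4:63959785-64047015, minus strand) encodes tenascin-C, which weakens cell adhesion and is typical of growing and remodelling tissue. Tnxb (chr17:34670535-34719815, plus strand) encodes tenascin-X, which binds collagen fibrils and whose loss gives a form of Ehlers-Danlos syndrome. Postn (chr3:54361109-54391037, plus strand) encodes periostin, a ligand of integrins that also aids collagen cross-linking. Tgfbi (chr13:56609523-56639562, plus strand) encodes a related integrin and collagen ligand that was named for its induction by TGF-beta. Thbs1 (chr2:118111876-118127133, plus strand) and Thbs2 (chr17:14665500-14694235, minus strand) encode the thrombospondins that restrain blood vessel growth through CD36 and CD47, and thrombospondin-1 can also activate latent TGF-beta. Thbs3 (chr3:89215180-89226837, plus strand), Thbs4 (chr13:92751590-92794818, minus strand) and Comp (chr8:70373558-70382066, plus strand) encode the other subgroup, best known from bone, tendon and cartilage. Sparc (chr11:55394500-55423183, minus strand) encodes a collagen-binding protein that takes part in procollagen processing. No member shared exons with a gene on its own strand. Exons of 8030451A03Rik, Cyp21a2-ps, Gm29233 and Mtx1 lay opposite those of Tnc, Tnxb, Thbs1 and Thbs3.

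The start sites of the members were read from RefSeq (GRCm38.p6), where 8 of the 10 genes had a window of 250 bases before to 50 after a start, 10 windows in all. Of these, 3 are shown because they belong to Tgfbi, the member that fell both with hormone treatment and in tumours, and to Postn and Tnc, the 2 that hold a TATA motif. In each, reading 5′ to 3′ on the gene's strand, capitals mark the motif named before it.
Postn, chr3:54360857-54361156, plus strand, TATATAA: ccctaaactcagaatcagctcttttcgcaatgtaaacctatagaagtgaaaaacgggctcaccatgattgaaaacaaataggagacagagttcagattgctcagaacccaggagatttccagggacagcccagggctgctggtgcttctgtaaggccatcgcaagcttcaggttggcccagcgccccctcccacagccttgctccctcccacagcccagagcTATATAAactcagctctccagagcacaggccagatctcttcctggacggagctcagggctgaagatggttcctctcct
Tnc, chr4:64046887-64047186, minus strand, TATATAA: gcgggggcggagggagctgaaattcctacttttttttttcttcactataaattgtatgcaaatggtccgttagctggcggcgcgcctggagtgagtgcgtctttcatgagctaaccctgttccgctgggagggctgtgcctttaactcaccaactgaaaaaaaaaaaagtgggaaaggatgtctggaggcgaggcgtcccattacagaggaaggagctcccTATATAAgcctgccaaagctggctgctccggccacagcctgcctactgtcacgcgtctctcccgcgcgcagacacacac
Tgfbi, chr13:56609336-56609635, plus strand, GTCTG: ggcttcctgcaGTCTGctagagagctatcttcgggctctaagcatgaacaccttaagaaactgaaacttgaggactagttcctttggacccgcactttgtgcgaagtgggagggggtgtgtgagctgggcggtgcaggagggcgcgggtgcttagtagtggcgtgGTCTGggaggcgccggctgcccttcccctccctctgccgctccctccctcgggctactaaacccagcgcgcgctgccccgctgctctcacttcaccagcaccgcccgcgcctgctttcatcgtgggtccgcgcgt
The TATATAA of Postn began 28 bases and that of Tnc 29 bases before the start. On either strand this motif lay in 3.24% of 32851 RefSeq windows, and in those of these 2 members among the 8. The GTCTG letters of the SMAD box, which SMAD proteins of the TGF-beta pathway can bind, began 239 and 85 bases before the Tgfbi start. They were present in 7 of the 8 members but also in 49.6% of all windows. The TGTTCT letters that progesterone and glucocorticoid receptors can bind, in 19.0% of all windows, were present in Sparc and Tnxb and not in the Tgfbi window. Both were searched on either strand too, and no match of one motif overlapped another. A match of letters is a description and no evidence of binding.

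Fibroblast states were rebuilt by clustering each experiment separately, with the 10 members and all state markers left out of the clustering. The resulting classes are named as -like only in the sense of their markers: progenitor-like (Pi16, Dpp4, Cd55), preadipocyte-like (Fabp4, Pparg, Lpl), ECM remodelling-like (Crabp1, Pla2g7, Mmp3), lobular-like (Cilp, Bmp5, Hmcn2), adipogenesis-regulatory-like (Gdf10, Clec11a, Fmo2), cycling and, in the raGFP-Wnt1 libraries, myofibroblastic-like (Tagln, Cthrc1, Ltbp2). Clusters that met no list kept their number. A class is a set of the same cells that gave its levels, so a class set against the rest is a description with no test.

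Across the 5 stages Sparc moved at least 2 fold at 2 of the 4 steps, and Tgfbi and Thbs3 were lower at each later stage. In stage order, from puberty to involution, Sparc stood at 14575, 5353, 11576, 10156 and 8441 CPM. Tgfbi ran 141, 119, 90.4, 85.3 and 58.7 CPM over the same stages. Thbs3 ran 142, 132, 126, 107 and 93.9 CPM. The puberty library was thus the highest for these 3 genes, and the lowest was the adult one for Sparc and the involution one for Tgfbi and Thbs3.

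Among members at 10 CPM or more, a change of at least 2 fold between neighbouring stages was seen 3 times. From puberty to adult Sparc was 2.72-fold lower (ratio 0.367, 95% exact Poisson interval 0.366 to 0.369), where 0.851% of 7872 genes were lower and 0.699% higher by that much. From adult to pregnancy Sparc was higher again, at a ratio of 2.16 (2.15 to 2.17), where 0.745% of 7923 genes were higher and 0.215% lower. From lactation to involution Thbs2 was higher at 2.18 (2.14 to 2.23), where 1.84% of 8093 genes were higher and 1.17% lower. Between pregnancy and lactation no member moved that far, while 5.48% of 8244 genes were higher and 2.21% lower. The intervals cover counting error only, and with 1 library a stage no difference between stages could be set against replicate error.

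The median log2 ratio of the members tested at each step was -0.10, -0.20, -0.14 and -0.07, beside medians over all genes of 0.10, -0.04, 0.08 and -0.12. Thbs2 stood at 318, 410.0, 298, 227 and 495 CPM in stage order, with its lowest level in lactation and its highest in involution. Thbs1 ran 338, 348, 275, 389 and 559 CPM and was likewise highest in involution. Its fellow Thbs4 ran 226, 284, 189, 105 and 188 CPM, with a low in lactation.

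Tnxb ran 552, 658, 628, 919 and 667 CPM, and so differed from Thbs2 and Thbs4 in having its highest value in lactation. Postn ran 1581, 1159.7, 1914, 2351 and 2411 CPM, lowest in the adult virgin. Tnc was scarce throughout, at 11, 8.17, 4.38, 1.84 and 4.67 CPM. Comp stayed at or below 0.799 CPM at every stage. The lactation library held 591 CPM of milk protein RNA (Csn1s1, Csn2, Csn3 and Wap) against 0.0813 to 22.5 in the other stages, and its part in the lactation levels was not tested.

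**Figure D1:**
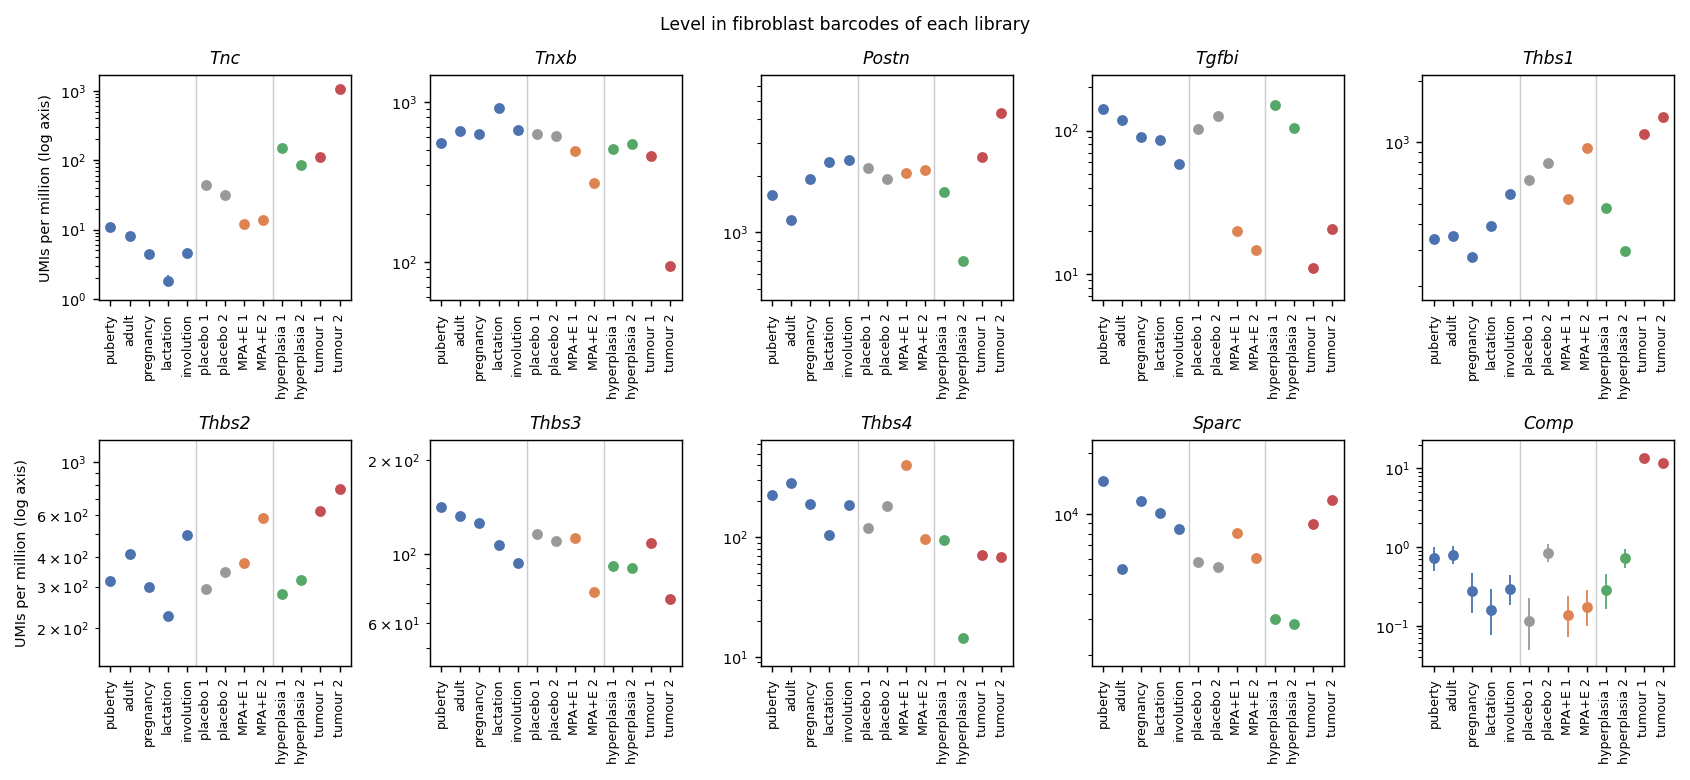
Level of each of the 10 genes in UMIs per 1000000 fibroblast UMIs (log axis, scaled for each gene) in the 13 libraries; each point is 1 library, and the bar is the 95% exact Poisson interval, mostly hidden by the point. Tgfbi lies at 14.6 to 19.7 in the MPA+E libraries and at 11.03 and 20.6 in the tumours, below all other libraries, and Comp exceeds 10 only in the tumours.

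Within the stage libraries the members were spread unevenly over the classes. For Thbs4 the lobular-like level was 889 to 1533 CPM against 27.3 to 105 in the other fibroblasts, a median ratio of 31.9 (range 10.2 to 42.2). Tgfbi was above the rest in the same class, at 249 to 448 CPM and a median ratio of 7.55. Thbs1 was above the rest in preadipocyte-like cells, at 533 to 839 CPM and a ratio of 2.03 to 3.26.

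In the progenitor-like class, the largest in most libraries, several members lay below the rest. There Thbs4 was 4.75 to 13.1 CPM, Tgfbi 17.9 to 39.1 and Thbs1 56.9 to 124 in the 5 stages, each below the rest in every library. Tnc was at 0.116 to 0.449 CPM in the same cells. Postn lay below the rest in adipogenesis-regulatory-like (195 to 636 CPM) and lobular-like cells (179 to 772), as Thbs2 did in adipogenesis-regulatory-like cells, at 50.5 to 103 CPM.

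The place of Thbs4 shifted in the later stages. In ECM remodelling-like cells it stood at 83.6, 52.2 and 38.8 CPM in puberty, adult and pregnancy and at 191 and 368 in lactation and involution. The lobular-like class held 83.6% to 88.4% of all fibroblast Thbs4 UMIs in the first 3 stages, 57.5% in lactation and 48.6% in involution. In ECM remodelling-like cells Tnc went the other way, from 208 CPM in puberty through 72.1 and 17.1 to 4.93 in lactation and 9.05 in involution. The puberty value rests on 106 ECM remodelling-like cells, 1.49% of that library, against 925 to 1762 cells in the other stages. These class values are given at a resolution of 0.3 alone. At 0.5 the lobular-like clusters of the stages held 3888 and 301 cells, against a cluster of 6881 cells at 0.3.

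**Figure D2:**
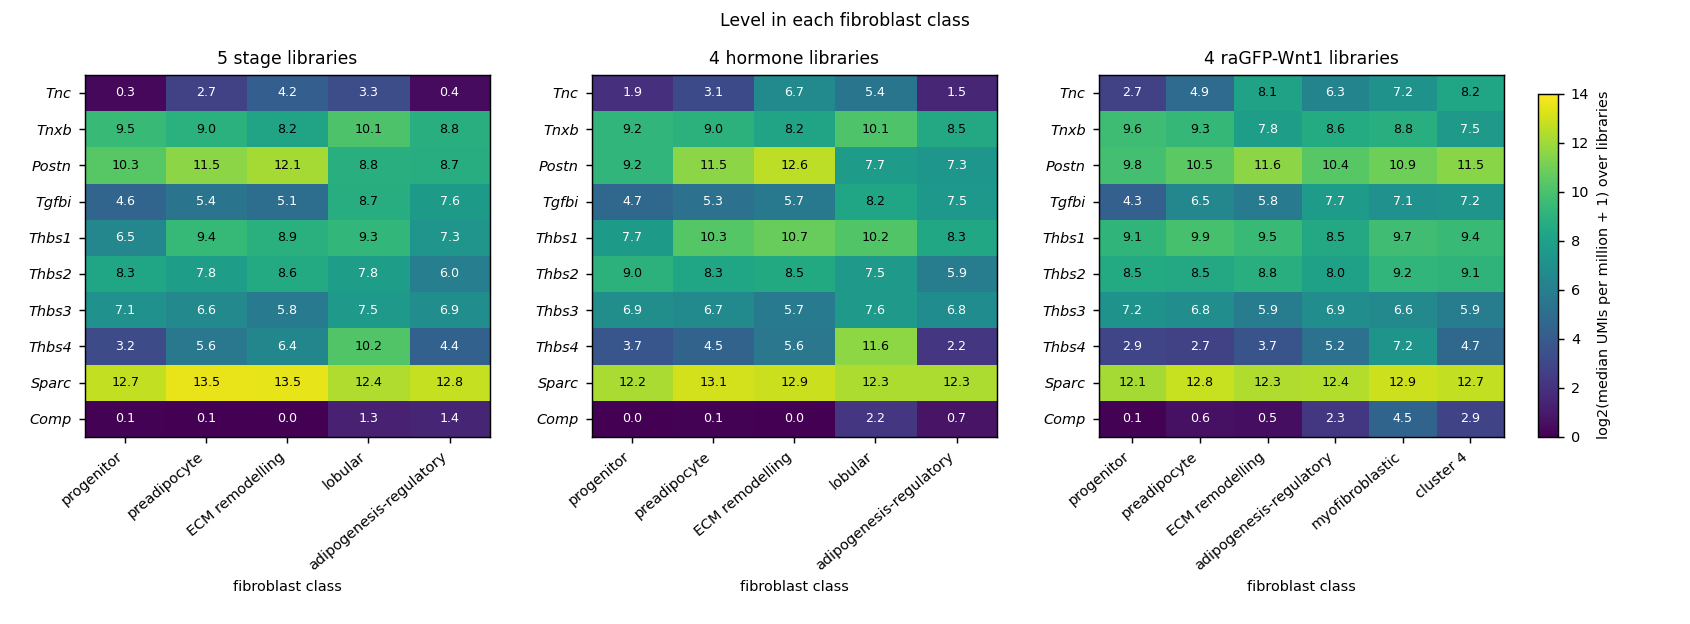
Median level over libraries of each gene in each fibroblast class, as log2(UMIs per 1000000 + 1), for the stage, hormone and raGFP-Wnt1 experiments, counting classes with at least 50 cells in a library. Thbs4 stands out in lobular-like cells (889 to 1533 UMIs per 1000000 in the stages), and in the stage and hormone experiments Postn stands out in ECM remodelling-like cells, while the progenitor-like column is low there for Tnc, Tgfbi, Thbs1 and Thbs4.

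The hormone experiment asked what progestin with estrogen does to mammary fibroblasts. Over all fibroblasts, 2 of the 10 members passed the test, both lower under MPA+E: Tgfbi and Tnc. In the fit over 15642 genes, 4.33% passed in either direction, 2.69% higher and 1.64% lower. The members' median log2 fold change was -0.12, beside 0.01 over all genes tested.

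Tgfbi stood at 102 and 126 CPM in the placebo libraries and at 19.7 and 14.6 under MPA+E. The groups lay far apart, both MPA+E libraries being under every other wildtype library. Its log2 fold change was -2.74 ± 0.20 (SE, n = 2 libraries a group, adjusted p = 0.00745 in the edgeR quasi-likelihood test with Benjamini-Hochberg adjustment). In barcodes thinned to 2000 UMIs, 16.9% and 19.4% had a Tgfbi UMI under placebo and 4.26% and 3.40% under MPA+E. Without thinning the shares were 41.6% and 45.2% against 15.8% and 9.26%, and 107 to 250 barcodes a library were too shallow to be thinned. Among thinned epithelial barcodes, taken as the background for such a share, 0 of 15 and 10 of 128 (7.81%) had one under placebo and 0 of 34 and 0 of 64 under MPA+E. The 3 counts of 0 allow shares of up to 20%, 8.82% and 4.69%, each above that of the fibroblasts in the same library. Tgfbi passed under every alternative tried, with an edgeR, limma-voom or DESeq2 adjusted p of at most 0.0497.

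Tnc stood at 44.4 and 31.6 CPM in the placebo libraries, against 12.2 and 13.6 with MPA+E. The groups did not overlap, and the libraries of both groups lay above all 5 stage libraries, which ran from 1.84 to 11 CPM. The untreated adult of 9 weeks was at 8.17 CPM, nearer to the MPA+E libraries than to the placebo ones. Its log2 fold change was -1.53 ± 0.17 (SE, n = 2, edgeR adjusted p = 0.0154). Without placebo 1 or without placebo 2, where the lone placebo library is assumed to vary like the others, its edgeR adjusted p was 0.0728 and 0.0519. For sums over a library, fewer cells of a type and less RNA per cell cannot be told apart.

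For the remaining members the difference did not pass. Tnxb was 629.8 and 607 CPM in the placebo libraries against 489.7 and 312.5 with MPA+E, without overlap. Its log2 fold change was -0.62 (edgeR adjusted p = 0.192), and it passed with DESeq2 (adjusted p = 0.0408). Thbs2 was 294 and 344 CPM against 375 and 581, and Sparc 5784 and 5425 against 8034 and 6070.2, both without overlap and with log2 fold changes of 0.60 and 0.34 (edgeR adjusted p = 0.338 and 0.390). Among all genes tested, libraries did not overlap in 22.4% on the lower side, where Tnc, Tnxb and Tgfbi lay, and in 21.2% on the higher side, where Thbs2 and Sparc lay.

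Postn, Thbs1, Thbs3 and Thbs4 overlapped between the groups. Postn was at 2196 and 1918 CPM against 2073 and 2132, and Thbs1 at 657 and 796 against 532 and 939, with log2 fold changes of 0.05 and 0.04 (edgeR adjusted p = 0.903 and 0.975). Thbs3 was at 116 and 109.9 against 112 and 75.4, and Thbs4 at 119.7 and 183 against 405 and 96.8 (-0.27 and 0.70, edgeR adjusted p = 0.510 and 0.661). The spread of Thbs4 went with that of the lobular-like class, which made up 4.38% and 5.82% of placebo fibroblasts and 9.30% and 2.04% of MPA+E fibroblasts, and its part was not tested. Comp was at or below 0.846 CPM in all 4 libraries (-1.63, edgeR adjusted p = 0.458).

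Of the cell type lists, the endothelial one was higher with the treatment, from 14.6 and 14.7 CPM to 44.1 and 46.0, nearly all of it Kdr (14.2 and 14.1 against 43.2 and 45.2). Cdh5, Vwf, Emcn and Cldn5 stayed at or below 0.374 CPM in these libraries. The 5 pericyte and smooth muscle markers summed to 59.7 and 62.9 CPM with placebo and to 30.5 and 39.9 with MPA+E, and the epithelial ones to 3.84 and 3.92 against 1.21 and 1.72. Muscle markers summed to 6.31 and 5.88 against 5.21 and 4.74, and immune ones to 2.22 and 1.72 against 2.24 and 2.64. The part of these markers in the hormone results was not tested.

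Because classes could hide opposite shifts, the response was then fitted within each of the 5 classes that had at least 50 cells in all 4 libraries. Tgfbi fell in each of the 5 classes. Its log2 fold change was -3.08 ± 0.29 in progenitor-like, -3.67 ± 0.27 in preadipocyte-like, -3.09 ± 0.22 in ECM remodelling-like, -2.79 ± 0.22 in lobular-like and -1.79 ± 0.19 in adipogenesis-regulatory-like cells, with edgeR adjusted p-values of 0.000715 to 0.00867. In lobular-like cells it went from 520.4 and 520.7 CPM to 61.7 and 85.4, and in progenitor-like cells from 41.8 and 59.5 to 7.26 and 4.44. Preadipocyte-like cells went from 67.04 and 91.98 CPM to 7.73 and 5.05, and ECM remodelling-like cells from 88.2 and 86.8 to 8.995 and 12.2. In adipogenesis-regulatory-like cells, where the fold change was smallest, the 268 and 294 CPM of placebo lay above the 68.97 and 85.6 of MPA+E.

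The progenitor-like class held the most members that passed, 5 of 9 tested (Comp was too scarce), beside 11.8% of all 13794 genes there. Besides Tgfbi, Postn and Tnxb fell and Thbs1 and Thbs2 rose. Postn was at 833 and 899 CPM in placebo cells against 335 and 158 with MPA+E, a log2 fold change of -1.78 ± 0.33 (edgeR adjusted p = 0.0268). Thbs2 went from 327 and 382 CPM to 645 and 908 (1.18 ± 0.22, edgeR adjusted p = 0.0276).

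Thbs1 went from 139 and 158 CPM to 243 and 297 in these cells (0.91 ± 0.17, edgeR adjusted p = 0.0254). Tnxb went from 756 and 732 CPM to 460.4 and 338 (-0.85 ± 0.16, edgeR adjusted p = 0.0271). None of these 4 overlapped between the groups, and the share of all genes without overlap in this class was not counted. All 4 lost the call without placebo 1 or without placebo 2, with edgeR adjusted p-values of 0.0973 to 0.191, while their fold changes kept the sign.

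The progenitor-like class joined 2 clusters. The larger, led by Pgr and Cxcl13, held 1216 and 1469 placebo and 1551 and 2440 MPA+E cells, and the smaller held 643 and 893 against 280 and 1044. Thbs2 was higher under MPA+E in both, at 361 and 442 against 677 and 1028 CPM in the larger cluster and at 254 and 271 against 442 and 584 in the smaller. Postn was lower in both, at 913 and 1089.9 against 371 and 185 CPM and at 659.5 and 540.2 against 103 and 84.3. Thbs1 did not overlap in the larger cluster, at 186 and 223 against 276 and 391 CPM, and overlapped in the smaller at 36.0 and 33.5 against 30.3 and 41.9.

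In ECM remodelling-like cells 3 of 9 members passed, beside 1.14% of 12641 genes. Tnc fell from 209 and 159 CPM to 24.2 and 41.5 (-2.51 ± 0.32, edgeR adjusted p = 0.0291), and Thbs3 from 68.9 and 60.7 to 40.4 and 32.8 (-0.89 ± 0.13, edgeR adjusted p = 0.0464). Thbs3 did not pass without either placebo library (edgeR adjusted p = 0.271 and 0.236). Postn, 4.35 to 8.13 times the rest in this class, stood at 5954.5 and 5744 CPM with placebo against 7038 and 6345 with MPA+E, which did not pass (0.13, edgeR adjusted p = 0.804).

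In preadipocyte-like, lobular-like and adipogenesis-regulatory-like cells Tgfbi was the 1 member that passed, beside 3.05%, 2.83% and 3.47% of all genes tested. Thbs4 in lobular-like cells stood at 2391 and 2762 CPM with placebo against 3619 and 3564 with MPA+E, a difference without overlap that did not pass (0.53, edgeR adjusted p = 0.245). The same held for Sparc there, at 3906 and 4195 against 7618 and 5609.9 CPM (0.75, edgeR adjusted p = 0.104). The share of all genes without overlap in lobular-like cells was not counted.

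**Figure D3:**
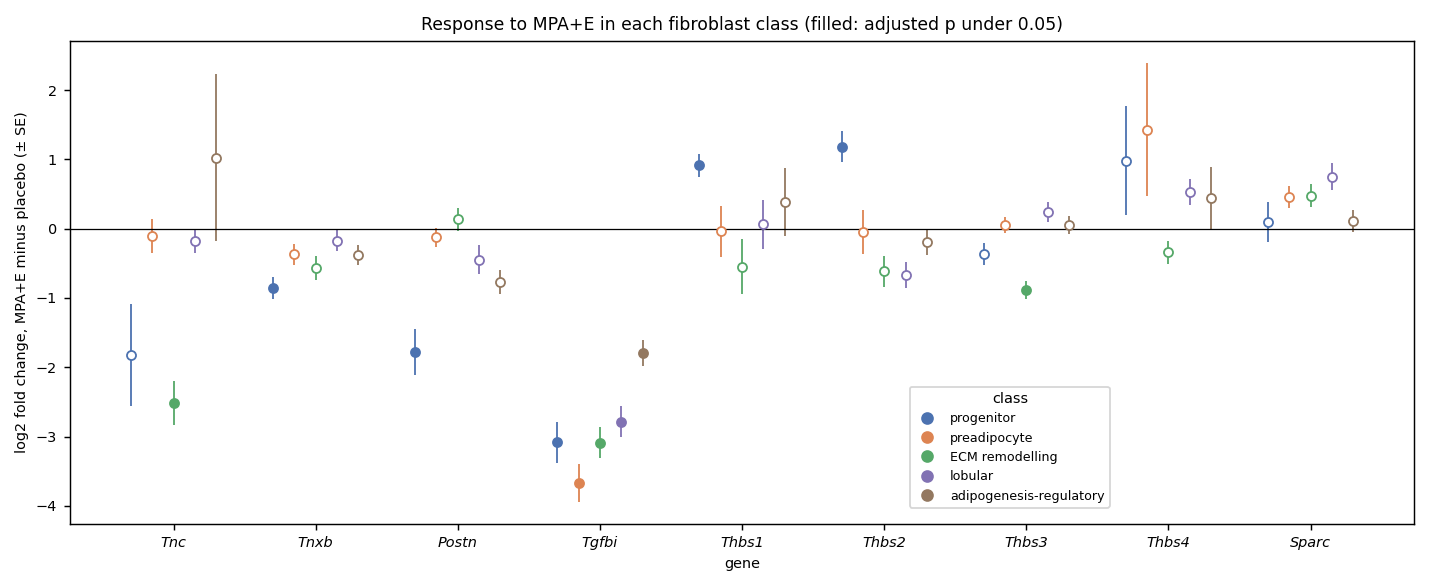
Log2 fold change of MPA+E over placebo for 9 genes in 5 fibroblast classes, with its standard error (n = 2 libraries a group); filled points have an edgeR adjusted p under 0.05. Tgfbi lies between -3.67 and -1.79 in all 5 classes, and progenitor-like cells have the lowest value for Postn and the highest for Thbs1 and Thbs2.

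The difference between classes was tested directly, as the effect in progenitor-like cells minus the mean effect in the other 4 classes. It passed for 4 members, beside 11.1% of 13865 genes. Thbs2 differed by 1.53 ± 0.11 (log2, SE, edgeR adjusted p = 5.61e-07), with an effect of 1.18 in progenitor-like cells and a mean of -0.38 elsewhere. Postn differed by -1.52 ± 0.25 (edgeR adjusted p = 0.000712), Thbs1 by 1.02 ± 0.21 (0.00457) and Tnxb by -0.51 ± 0.09 (0.0011).

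For Tgfbi the difference between classes was -0.24 ± 0.25 and did not pass (edgeR adjusted p = 0.622), nor did those of Sparc (0.0952), Thbs3 (0.119), Tnc (0.263) and Thbs4 (0.804), and that of Comp could not be estimated. The Tnxb and Thbs1 differences did not pass without placebo 2 (edgeR adjusted p = 0.0504 and 0.121). The classes of a library come from the same cells of 1 sort, and the library was a term of that fit. Its p-values thus measure how class sums scatter within libraries, not the spread between pools.

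**Figure D4:**
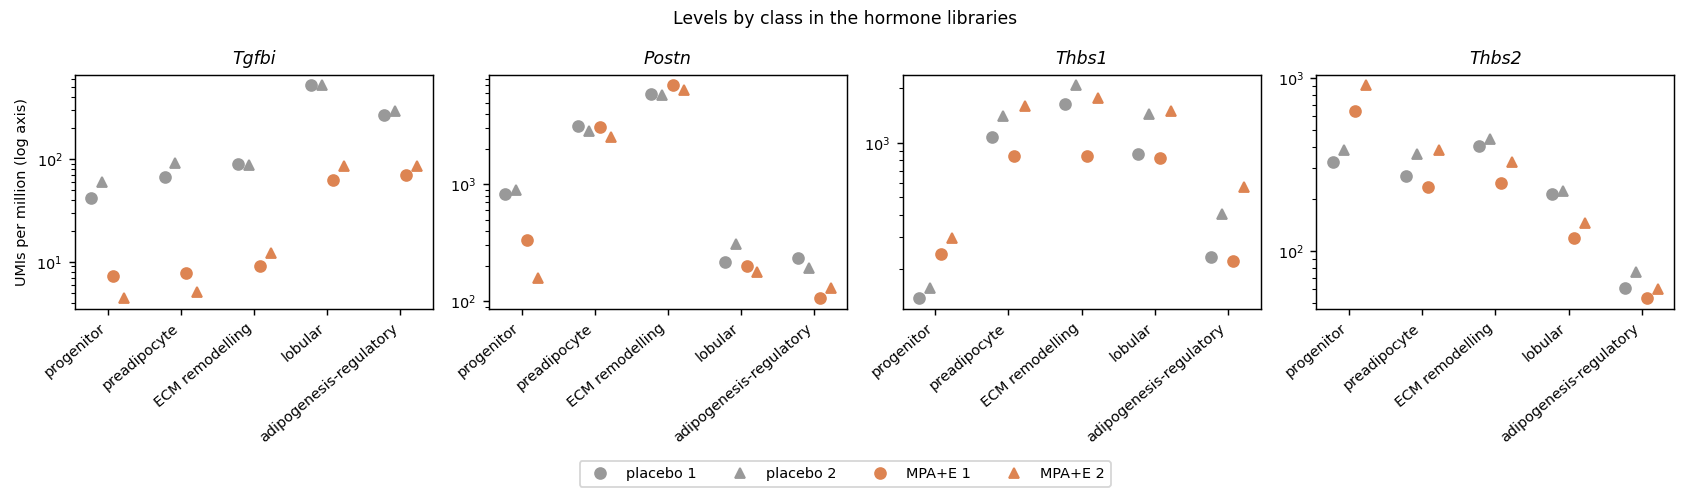
Levels of Tgfbi, Postn, Thbs1 and Thbs2 in UMIs per 1000000 (log axis, scaled for each gene) by fibroblast class in the 2 placebo and 2 MPA+E libraries, each point being 1 library. For Tgfbi the MPA+E points lie below the placebo points in all 5 classes, and for Thbs2 they lie above in progenitor-like cells, at 645 and 908 against 327 and 382.

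Over the classes the members were uneven in the hormone libraries too. Thbs4 in lobular-like cells had a median ratio of 125 (80.8 to 168), and that class held 78.5% to 90.1% of its UMIs. Tnc in ECM remodelling-like cells had a ratio of 2.54 to 25.5. Tnxb was 2.01 to 3.27 times the rest in lobular-like cells, where it stood at 976 to 1294 CPM.

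In the raGFP-Wnt1 mice the fibroblasts of the tumour were compared with those of the hyperplastic gland. Of the members 6 of 10 passed, beside 29.3% of 16302 genes: Comp, Thbs1, Thbs2, Sparc and Postn rose in tumours (15.4% of genes did) and Tgfbi fell (13.9%). The members' median log2 fold change was 1.41, beside -0.01 over all genes tested. The fit, limma-voom, also held the puberty and adult libraries as a normal group that shared in the estimate of the spread.

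Comp was at 0.283 and 0.718 CPM in the hyperplastic glands and at 13.7 and 11.6 in the tumours. It rose by a log2 fold change of 4.73 ± 0.41 (SE, n = 2, limma-voom adjusted p = 0.00282), and every library other than the tumours was at or below 0.846 CPM. In thinned barcodes 1.46% and 1.596% of tumour fibroblasts had a Comp UMI, against at most 0.106% in any other library and 0 of 40 and 0 of 183 epithelial barcodes of the tumours, which allow shares of up to 7.5% and 1.64%, above those of the fibroblasts. Without thinning the tumour shares were 3.34% and 4.39%, against at most 0.330% elsewhere. Of the tendon and cartilage genes, Acan and Col2a1 were at or below 0.46 CPM in all 4 libraries. Scx was at 0.566 and 0.221 CPM in hyperplasia against 2.49 and 4.59 in tumours, while the 3 tendon genes together (Scx, Tnmd and Mkx) overlapped, at 3.72 and 2.08 against 3.56 and 6.36. Tnmd was lower in the tumours (2.65 and 1.48 against 0.663 and 1.34 CPM). The 4 cartilage genes summed to 69.4 and 44.1 CPM against 38.8 and 39.7, with Sox9 at 21.9 and 9.90 against 36.3 and 39.1, and Cnmd at 47.01 and 33.99 against 2.32 and 0.444, and their part was not tested.

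Tgfbi was at 151 and 105 CPM in hyperplasia and at 11.03 and 20.6 in the tumours. Both tumours thus lay far below both hyperplastic glands. Its log2 fold change was -3.06 ± 0.32 (limma-voom adjusted p = 0.00467). Comp and Tgfbi kept the call in each of the 13 alternative settings tried, with adjusted p-values of at most 0.0358 and 0.0480.

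Thbs1 and Thbs2, the angiogenesis-restraining pair, were both higher in the tumours of both mice. Thbs1 stood at 477 and 296 CPM in hyperplasia and at 1096 and 1334 in tumours, a log2 fold change of 1.69 ± 0.26 (limma-voom adjusted p = 0.0101). Thbs2 stood at 279.9 and 319 against 623 and 770.5 CPM (1.22 ± 0.18, limma-voom adjusted p = 0.0101). Neither overlapped, and the tumour libraries were the highest of all 13 for both genes.

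Sparc stood at 3012 and 2829 CPM in hyperplasia and at 8937 and 11798 in tumours (1.82 ± 0.46, limma-voom adjusted p = 0.0306). The hyperplastic glands had the lowest Sparc of all libraries, while the tumours lay within the range of the stages. Postn stood at 1642 and 698 CPM against 2526 and 4309 (1.62 ± 0.46, limma-voom adjusted p = 0.0416). With the mouse as a block Postn did not pass (adjusted p = 0.0775), nor with edgeR (adjusted p = 0.0506).

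These calls rested on few libraries. Without hyperplasia 1, Thbs2, Sparc and Postn did not pass (limma-voom adjusted p = 0.0846, 0.143 and 0.0622), and without hyperplasia 2, Thbs1, Thbs2, Sparc and Postn did not (0.0514, 0.0593, 0.120 and 0.146). Sparc also did not pass without tumour 2 (0.0573), nor Postn without puberty, adult or tumour 2 (0.0698, 0.0703 and 0.0938). In these fits an arm left with 1 library is assumed to vary like the others.

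Tnc, Tnxb, Thbs3 and Thbs4 did not pass. Tnc was at 149.8 and 85.5 CPM in hyperplasia and at 111 and 1062 in tumours, so that the 17-week tumour 2 alone was far above the others. Its log2 fold change was 1.601 (limma-voom adjusted p = 0.215). It was 3.20 without tumour 1 and -0.0025 without tumour 2. Tumour 2 had the lowest Tnxb of all libraries, 93.6 CPM, against 456 in tumour 1 and 507 and 547 in the hyperplastic glands (-1.35, limma-voom adjusted p = 0.163).

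Without tumour 1 both genes passed (limma-voom adjusted p = 0.000746 for Tnc and 0.000155 for Tnxb). Thbs3 was at 91.8 and 90.3 CPM in hyperplasia and at 109 and 72.04 in the tumours (-0.04, limma-voom adjusted p = 0.900). Thbs4 was at 94.6 and 14.3 against 71.6 and 68.7 CPM (0.93, limma-voom adjusted p = 0.388), and it passed without hyperplasia 1 (2.30, limma-voom adjusted p = 0.0288). In the plot of levels by library these last pairs lie across one another. Libraries did not overlap in 35.4% of all genes on the higher side, where 5 members lay, and in 36.8% on the lower side, where Tgfbi and Tnxb lay. Immune markers summed to 7.27 and 8.52 CPM in hyperplasia and to 18.2 and 10.98 in tumours. Endothelial markers summed to 5.77 and 12.8 against 2.96 and 3.71 CPM, keratinocyte markers to 59.3 and 149.9 against 36.4 and 20.4 and Schwann cell markers to 18.97 and 25.3 against 10.03 and 2.05, and muscle markers to 3.66 and 3.91 against 2.59 and 3.41. The part of these markers in the tumour results was not tested.

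The composition of the fibroblasts was not the same in hyperplasia and tumour, which is given without a test. ECM remodelling-like cells made up 46.7% and 42% of hyperplastic and 12.6% and 10.6% of tumour fibroblasts. The myofibroblastic-like cluster, led by Adamts8, Comp, Pthlh and Thbs4 among others, with 4 of its 7 markers at 2 fold or more and 0 among its leading genes, went from 1.56% and 1.45% to 19.8% and 36.8%. An unnamed cluster led by Igfbp2, Cdkn2a and Inhba (cluster 4) went from 4.02% and 3.86% to 19.2% and 24.1%. With finer clustering the names moved: at a resolution of 0.5 the Igfbp2-led cluster of 3093 cells took the myofibroblastic-like markers, and a Thbs4-led cluster of 1560 cells the lobular-like ones.

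Levels were set side by side within 6 classes, without a test. Sparc, Thbs1 and Thbs2 were higher in both tumours than in both hyperplastic glands in all 6 classes, and Tgfbi was lower in all 6. For all genes at 10 CPM or more the libraries were apart on the higher side in 25% of genes in progenitor-like, 31.1% in preadipocyte-like, 45.8% in ECM remodelling-like, 41% in adipogenesis-regulatory-like and 34.5% in myofibroblastic-like cells and 44.4% in cluster 4. On the lower side the shares were 33.6%, 30.1%, 25%, 25.2%, 33% and 30.2% in the same order. Postn was higher in 5 of the 6 classes, Tnc and Thbs4 in 4, and Tnxb lower in 3. The classes come from the same libraries, and the share of all genes apart in several classes at once was not counted. These counts of classes therefore have no background beside them. Thbs3 was higher in 1 class and lower in 3, and Comp higher in 1.

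Examples are given from the class with the largest change of each gene among the 6. For Postn and Tnc this was the adipogenesis-regulatory-like class. In the other classes the ratio of tumour to hyperplasia was 1.91 to 4.77 for Postn and 0.996 to 73.3 for Tnc. Adipogenesis-regulatory-like cells had a median depth of 0.519 times that of their library, and the part of depth was not tested. There Postn was at 173 and 102 CPM in hyperplasia and at 2480.4 and 5125 in tumours, and Tnc at 14.7 and 11.4 against 144 and 1824. Thbs1 in progenitor-like cells, where it lay below the rest in every stage and hormone library, stood at 168 and 72.2 CPM in hyperplasia and at 964 and 1915 in tumours. Tgfbi in cluster 4 stood at 292 and 293 CPM against 5.36 and 7.85.

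For Comp, Thbs4 and Tnc the place of the UMIs over the classes is given next, and in the tumours it depended on the clustering. In myofibroblastic-like cells Comp stood at 10.5 and 24.5 CPM in hyperplasia and at 37.3 and 19.3 in tumours. The hyperplastic values rest on 12 and 30 UMIs, in 3.19% of 94 and 5.17% of 116 cells. In cluster 4 Comp was at 0 in both hyperplastic glands and at 14.2 and 12.5 CPM in tumours.

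Myofibroblastic-like cells held 71.0% and 70.3% of the tumour UMIs of Comp and 60.2% and 69.5% of those of Thbs4. At the resolution of 0.5 the myofibroblastic-like class held 20.3% and 22.9% of the Comp UMIs and 16.8% and 15.3% of the Thbs4 UMIs of the tumours, and the lobular-like class 70.6% and 69.7% and 52.8% and 45.7%. In hyperplasia lobular-like cells held 86.4% and 73.8% of the Thbs4 UMIs, and 88.2% and 73.9% at 0.5. For Tnc, ECM remodelling-like cells held 84.8% of the UMIs in each hyperplastic gland but 11.5% and 2.79% in the tumours, where myofibroblastic-like cells held 43.9% and 53.5%. At 0.5 the myofibroblastic-like class held 27.6% and 16.8% of the tumour Tnc UMIs.

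**Figure D5:**
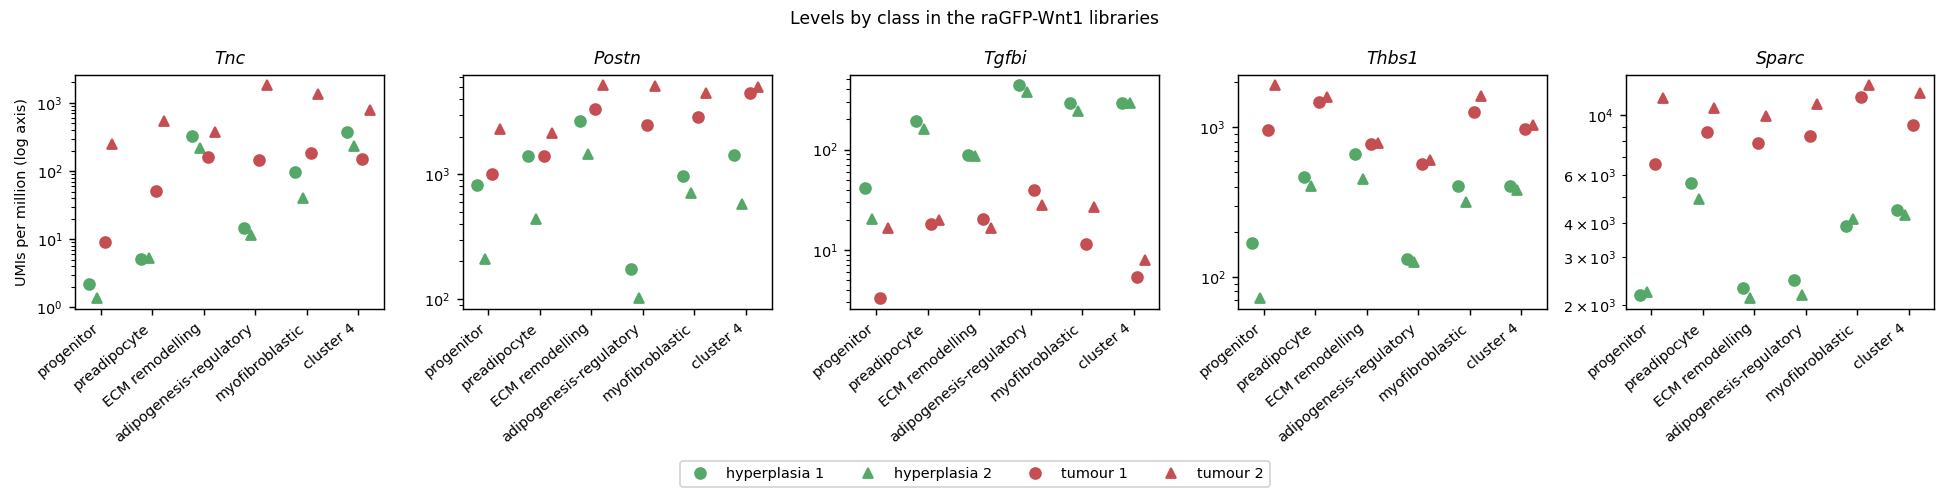
Levels of Tnc, Postn, Tgfbi, Thbs1 and Sparc in UMIs per 1000000 (log axis, scaled for each gene) by fibroblast class in the 2 hyperplastic glands and 2 tumours, each point being 1 library and the marker shape the mouse. Tumour points lie above both hyperplasia points in all 6 classes for Thbs1 and Sparc and below them for Tgfbi.

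Hyperplastic glands were also set against the puberty and adult glands. No member passed, beside 14% of 16302 genes (7.7% higher and 6.29% lower), with 4 members and 5707 of all genes at an unadjusted p under 0.05. The members' median log2 fold change was -0.34, beside -0.01 over all genes tested. The groups differ in strain, sort and age as well as in the transgene, which cannot be told apart. Puberty and adult stood as replicates of 1 group, so differences between these stages counted as spread, such as that of Sparc (14575 and 5353 CPM). Tnc came nearest, at 11 and 8.17 CPM in normal and 149.8 and 85.5 in hyperplastic glands (3.57 ± 0.94, limma-voom adjusted p = 0.0517). Both hyperplastic libraries thus lay far above the puberty and adult ones. The placebo libraries, from wildtype glands too but not in this fit, stood between, at 44.4 and 31.6 CPM.

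Sparc (-1.64, adjusted p = 0.0575), Thbs4 (-2.82, 0.0638) and Thbs3 (-0.63, 0.105) were lower in the same limma-voom fit without passing. Tnxb (-0.23, adjusted p = 0.835) and Comp (-0.73, 0.344) were lower too, and Postn (-0.37), Tgfbi (-0.08), Thbs1 (0.10) and Thbs2 (-0.31) overlapped between the groups. DESeq2 called Tnc and Sparc (adjusted p = 0.00454 and 0.000599), and edgeR called Sparc (0.0497). Tnc, Thbs3, Thbs4 and Sparc passed in limma-voom without tumour 1, and likewise without tumour 2. The tumour libraries only share in the estimate of the spread here. The share of all genes that passed in these fits is not given beside these members. Sparc also passed without adult (0.0418) and Thbs4 without hyperplasia 1 (0.0333) and without a filter on low counts (0.0496). Of all genes, 37.1% were apart on the higher side, where Tnc lay, and 33.6% on the lower side, where Tnxb, Thbs3, Thbs4, Sparc and Comp lay. The cartilage markers summed to 69.4 and 44.1 CPM in hyperplasia against 23.7 and 25.4 in normal glands, with Cnmd at 47.01 and 33.99 against 3.22 and 3.16 and Sox9 at 21.9 and 9.90 against 20.3 and 22.2. Immune markers were also higher (7.27 and 8.52 against 5.25 and 3.56), and endothelial (5.77 and 12.8 against 23.5 and 27.5), muscle (3.66 and 3.91 against 11.2 and 7.53) and epithelial ones (2.16 and 2.996 against 3.71 and 4.18) lower. The part of these markers was not tested.

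Receptors of these ligands were taken next. Under MPA+E, 2 of 18 receptor genes tested rose and 1 fell (median 0.10), where 2.69% of all genes rose and 1.64% fell: the integrin chain Itgb3 (0.85) and the syndecan Sdc1 (0.59) rose, and Itga9 (-0.65), which pairs with Itgb1 to bind tenascin-C, fell. In tumours 6 of 19 rose and 3 fell (median 0.21), where 15.4% of all genes rose and 13.9% fell, with Itga3 (3.75) and Itgb5 (1.34) higher and Itga8 (-2.56) and the thrombospondin receptor Cd36 (-4.38) lower. Cd36 is also a preadipocyte marker, and that class made up 13.8% and 16.3% of hyperplastic and 10.9% and 4.86% of tumour fibroblasts. Over all fibroblasts Cd36 was at 9.86 and 17.8 CPM in hyperplasia and at 0.985 and 0.399 in tumours. The paper reported no Cd36+ committed preadipocytes in tumours, and whether the tumour cells in this class are of that type was not tested. Against normal glands, where 7.7% of all genes rose and 6.29% fell, 2 of 19 rose in hyperplasia, Itga8 (2.96) and Itga7 (1.39), and none fell, with 4 of 19 at an unadjusted p under 0.05, as 5707 of 16302 genes were, and 1 lower with DESeq2 (median 0.16). All are edgeR (hormone) or limma-voom log2 fold changes that passed.

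Related matrix glycoproteins split in direction. Under MPA+E 2 of 19 rose, Spock1 (3.52) and Spon1 (1.86), and 2 fell, Spock3 (-2.04) and Fndc1 (-1.41), beside 2.69% and 1.64% of all genes. DESeq2, which called 1312 genes in all, called 4 higher and 6 lower there, and limma-voom, with 679 genes in all, 3 and 4. In tumours 5 of 20 rose and 5 fell, beside 15.4% and 13.9% of all genes, among them osteopontin, Spp1 (6.19), and Spock1 (2.70) on the higher side and Spock2 (-3.86) and vitronectin, Vtn (-3.26), on the lower. Of the same list, 4 rose and 2 fell in hyperplasia against normal (7.7% and 6.29% of all genes), led by Sparcl1 (2.45), a relative of Sparc, with Fbln7 (1.37) also higher and Spon2 (-1.17) and Vtn (-1.03) lower. The list's medians were 0.05, -0.24 and 0.34 in the 3 comparisons, beside 0.01, -0.01 and -0.01 over all genes, which also stand beside the medians of the other lists.

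Genes known to be induced by TGF-beta were the third list. Under MPA+E 0 of 14 passed in the edgeR test (median 0.27), beside 4.33% of all genes, with 1 at an unadjusted p under 0.05, as 2893 of 15642 genes were, 1 called by DESeq2 and 0 by limma-voom. In tumours, where Tgfbi, whose window with GTCTG letters is shown above, fell, 9 of 14 rose and 1 fell (median 2.71), beside 15.4% and 13.9% of all genes, including the contractile Acta2 (8.25) and Tagln (7.74), the latent TGF-beta binding protein Ltbp2 (8.25) and Lrrc15 (4.95). These named genes are also markers of the myofibroblastic-like class, whose share was larger in both tumours, and the part of that class was not tested. Skil, Tgif1, Smad7 and Cnn1 did not pass, and Bambi fell (-1.37). Acta2 stood at 0.761 and 2.07 CPM in hyperplasia and at 228 and 698 in tumours, while the pericyte and smooth muscle markers summed to 44.4 and 29.8 against 45.2 and 24.0 CPM. Against normal glands, 4 of 14 rose in hyperplasia and 2 fell (median 0.56), beside 7.7% and 6.29% of all genes, with Ccn2 (2.12) higher and Acta2 (-4.46) and Tagln (-2.75) lower. In the puberty and adult libraries the pericyte and smooth muscle markers summed to 64.7 and 33.7 CPM, and a stage cluster of 233 cells was led by the smooth muscle genes Myh11, Acta2 and Tagln. Their part in these values was not tested.

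Over the 13 libraries, the genes whose levels followed each member most closely were listed among 9098 genes that reached 10 CPM in some library, by Pearson correlation of log2(CPM + 1). These points share groups and depth, so r describes these libraries only. Sparc was nearest to Cgref1, Col1a2 and Col3a1 (r 0.958 to 0.962), and Postn to Snhg18, Col5a2 and E2f3 (0.856 to 0.872). Thbs1 was nearest to the chemokines Cxcl3 and Ccl2 and to Cdk17 (0.910 to 0.935), and Thbs2 to Slco5a1, Atp5g2 and Ccn4 (0.880 to 0.953). Thbs3 was nearest to Slc39a3, Pygb and Ret, and Thbs4 to Adamtsl2, Eng and Snrpb2 (0.832 to 0.895 for both).

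Among the tenascins and Tgfbi, Tnc was nearest to Tead2, Rnaset2a and Ahr (0.933 to 0.940), Tnxb to Pcsk6, Itih5 and Cadm3 (0.970 to 0.974) and Tgfbi to Snx24, Ntf3 and Cdon (0.881 to 0.931). Comp, which exceeds 10 CPM in the tumours alone, was nearest to Lmcd1, Pmaip1 and Col8a2 (0.970 to 0.976). No member was among the 3 nearest genes of another.

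Detection was also counted by barcode. Sparc was found in 89.3% to 100% of thinned fibroblast barcodes of a library, Tnxb in 14.2% to 78.4% and Postn in 42.9% to 95.3%. Tnc was found in 48.4% of tumour 2, in 10.3% to 15.9% of the other raGFP-Wnt1 libraries and in at most 6.18% of any wildtype library. Sparc, Thbs1 and Postn had a UMI in 78.5%, 54.7% and 24.3% of the 880 epithelial barcodes, and shares at or below these are not read as expression. For Thbs1 the share of all thinned fibroblasts, 34.4%, was below that, and only the tumours were above (59.7% and 69.7%). Detection by barcode thus says nothing of Thbs1 in the other libraries. The part of epithelial RNA in its levels was not tested. For Tnc, Tnxb, Thbs2, Thbs3 and Thbs4 the share there was 0.341% to 1.70% over all libraries, and for Tnc in tumour 2 it was 7 of 183, or 3.83%.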

How the data were processed

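The authors made the deposited matrices with Cell Ranger 6.1.2 on mm10, per the submitters' processing notes, from 10x Chromium 3' libraries. Per the labels and the values, they hold counts of UMIs per gene and barcode, 1 matrix a library, not normalized. The annotation release is not given in the sources used here. Fibroblast barcodes were selected by the limits given above, and a sum of their UMIs was taken in each library and in each class of a library. Intervals cover counting error only.

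Classes came from Seurat 5.3.0 (reciprocal PCA integration within each experiment, 1000 features without members or state markers, 30 dimensions, resolution 0.3). Barcodes with the highest Scrublet scores (scanpy 1.11.5, 0.8% per 1000 barcodes within the gene and mitochondrial limits) were kept, and their removal was an alternative. Hormone sums, classes and the difference between classes were tested with the quasi-likelihood test of edgeR 4.0.16 and the tumour and hyperplasia comparisons with voom of limma 3.58.1, after a filter on low counts, with Benjamini-Hochberg adjustment over all genes and a threshold of 0.05. DESeq2 1.42.0 was an alternative. The tests were tried on simulated data with known changes. Classes needed 50 cells in each library compared.

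Tumour and hyperplastic gland of 1 number came from the same mouse, per the labels. Their deviations from the group means correlated at 0.198 over 12492 genes, and the mouse block was an alternative.

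All 10 members were named in each comparison. From the receptor, matrix glycoprotein and TGF-beta lists, up to 4 genes with the largest change among those that passed were named, and for each member the 3 genes nearest over the 13 libraries. A gene that this rule names in the TGF-beta list is not reported here. The members and lists were chosen with earlier results of these data known. The rule that scored clusters against the marker lists, and the motifs, were set after the cluster tables and windows had been seen.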

Additional observations from a re-analysis of the deposited data

Results flagged for a closer look

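In 4 of the genes the response to MPA+E differed between progenitor-like cells and the mean of the other 4 classes by the test of the difference itself, as described above. On the log2 scale the difference was 1.53 for Thbs2, 1.02 for Thbs1, -0.51 for Tnxb and -1.52 for Postn. Thbs2 was higher under MPA+E in progenitor-like cells of both clusters that make up the class, and its fold change was below 0 in the other 4 classes. For Thbs1, which was higher in progenitor-like cells, the larger cluster was apart between the groups and the smaller one was not. The share of the smaller cluster was unlike in the 2 MPA+E libraries, 280 of 1831 and 1044 of 3484 cells, and its part in these differences was not tested.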

How the results depend on the processing

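The settings tried were a mitochondrial limit of 5%, removal of doublets, a fibroblast limit of 100, other tools, no filter on low counts, a block, a clustering resolution of 0.5 and each library left out in turn. An arm left with 1 library is assumed to vary like the others. Among the members' fold changes, 96 of 110 settings in the hormone comparison, 109 of 130 in tumours and 102 of 120 in hyperplasia kept the direction and the side of the threshold. Where a value moved, the cause was not tested. A count of members given below for a setting without a count of all genes has no background beside it.

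Genes that passed in the hormone comparison numbered 678, 1312 with DESeq2, 2451 with the replicate block and 22 to 900 with a library left out, and members 2, 4 with the replicate block and 1 to 4. The titles of the hormone libraries give a replicate number and do not say whether same-numbered libraries were handled together. Deviations of same-numbered libraries correlated at 0.582 over 12236 genes, so the replicate block is given here alone. With it Tnxb (-0.65, edgeR adjusted p = 0.0240) and Thbs2 (0.56, 0.0162) passed, as both did without MPA+E 1 (-0.93, 0.0277 and 0.91, 0.0422). Tumour genes numbered 4777 and 242 to 7120 with a library left out (members 6, and 2 to 8), and apart from Postn the mouse block changed no other call. Hyperplasia genes numbered 2280, 3942 with DESeq2 and 1 to 4810 with a library left out. Members there numbered 0, 2 with DESeq2, 1 with edgeR, 1 without a filter and 0 to 4 without 1 library, the 4 being Tnc, Thbs3, Thbs4 and Sparc without tumour 1 or tumour 2.

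By class, progenitor-like genes numbered 1628, 3243 with the replicate block and 456 to 2157 with a library left out (members 5, and 1 to 7). Preadipocyte-like genes numbered 387, 626 with DESeq2, 1235 without a filter, 2101 with the replicate block and 148 to 431, and members 1, 3 without a filter and 4 with the block. ECM remodelling-like genes numbered 144, 314 with DESeq2, 842 without a filter, 1356 with the replicate block and 45 to 503, and members 3, 6 without a filter, 7 with the block and 2 to 5. Lobular-like genes numbered 294, 723 without a filter, 1231 with the replicate block and 26 to 557, and members 1, 2 with DESeq2, 4 without a filter, 5 with the block and 1 to 2. Adipogenesis-regulatory-like genes numbered 405, 1761 with the replicate block and 115 to 693, and members 1, 2 with DESeq2, 2 without a filter, 3 with the block and 1 to 2. The difference between classes passed for 1538 genes and 542 to 1212 with a library left out, and for 4 members, 7 without a filter and 2 to 8. At 3 fold 0 members changed at any step between stages, where 1 member did at 2 fold at each of 3 steps.

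Log2 fold changes that turned in sign did not pass in the main setting. In the hormone comparison Thbs1 was 0.04 and -0.022 with limma-voom and with the replicate block, and with a library left out Thbs1 ran from -0.50 to 0.42 (-0.16 without placebo 1), Comp from -2.47 to 0.52, Thbs4 from -0.60 to 1.37 and Postn from -0.024 to 0.11. In tumours Thbs3 was 0.043 at the fibroblast limit of 100 and 0.015 with DESeq2, and ran from -0.36 to 0.29, Thbs4 from -0.44 to 2.30 and Tnc from -0.0025 to 3.20. In hyperplasia Tgfbi ran from -0.36 to 0.18, Thbs1 from -0.25 to 0.44 and Postn from -1.004 to 0.24.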
